A study of Mus musculus with 12 samples.

Results

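The genes described here are 44 components of the cell division cycle, 21 that copy DNA or commit a cell to copying it and 23 that build, drive or check mitosis. They were chosen by name from the 33531 gene symbols in the expression files, and all 44 were found. They stayed in every test except under a stricter alternative filter, which dropped Cenpf. The cells were leukaemia cells of the mouse line CMM, a model of acute myeloid leukaemia with inv(16), which carries an inducible short hairpin against Stat3 (tetON-shStat3) and is marked by GFP and mCh, and they grew in NSG mice. All 4 groups carried the hairpin construct: PBS received vehicle, CpG1668 received a CpG oligonucleotide, Dox received doxycycline, which switches a tetON hairpin on, and CpG1668+Dox received both. Injections were intravenous and started when leukaemia cells made up about 1% of blood, and marked cells were sorted from spleen 1 day after the last injection. The protocol gives 6 daily injections and the design text 3 on alternate days, so the schedule is uncertain. Each group had 3 libraries, and no group received Dox without a hairpin, so effects of the drug and of the hairpin cannot be told apart. NSG mice lack lymphocytes and so do not show how the lymphoid system of a host would act on these cells.

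Before DNA is copied, the origin recognition complex with Cdc6 and Cdt1 loads the Mcm2 to Mcm7 helicase on chromatin, and cyclin E with Cdk2 then starts synthesis. Genes for this step are classic targets of E2F transcription factors. Genes for mitosis are transcribed later, in G2, from promoters that often carry a CHR element (cell cycle genes homology region) and CCAAT boxes bound by NF-Y, and they are held down in resting cells by the DREAM complex. When blood precursors mature into neutrophils or macrophages they usually leave the cycle, so both gene classes are common readouts of whether blood cells are still dividing.

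The 2 classes differed in the short words their promoters hold. RefSeq promoter windows of GRCm38.p6, each 300 bases from 250 before to 50 after the transcription start, were matched by symbol for 35 members, which gave 37 windows. They were searched on both strands for the E2F words TTCCCGC and TTGGCGC, the CHR words TTTGAA and TTCGAA, and CCAAT. An E2F word was in 10 of 17 replication windows (58.8%) and 3 of 20 mitosis windows (15%), against 6.81% of the 32851 windows in the whole table. A CHR word was in 2 replication windows (11.8%), those of Mcm2 and of Mcm7, and in 16 mitosis windows (80%), against 19.2% of all windows. CCAAT was in 12 replication windows (70.6%), 18 mitosis windows (90%) and 37.4% of all windows. The reverse of TTGGCGC shares bases with CCAAT when a T follows it, as it does in Ccnb1. These matches describe letters and are not measured binding sites.

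Each of the 4 promoters printed next, 5′ to 3′ on the strand of its gene, carries a result or a textbook case: Top2a was the only member called against PBS, Pola1 had the largest test statistic of the replication genes, and Cdk1 and Ccnb1 are the kinase and cyclin that open mitosis. Capitals mark the E2F, CHR and CCAAT words on either strand.
Pola1: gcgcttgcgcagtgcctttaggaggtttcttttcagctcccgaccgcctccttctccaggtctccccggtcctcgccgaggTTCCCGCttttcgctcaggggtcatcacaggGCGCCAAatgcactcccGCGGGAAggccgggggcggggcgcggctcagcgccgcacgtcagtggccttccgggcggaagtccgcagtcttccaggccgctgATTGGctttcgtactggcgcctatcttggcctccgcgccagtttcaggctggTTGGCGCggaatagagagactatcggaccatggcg
Top2a: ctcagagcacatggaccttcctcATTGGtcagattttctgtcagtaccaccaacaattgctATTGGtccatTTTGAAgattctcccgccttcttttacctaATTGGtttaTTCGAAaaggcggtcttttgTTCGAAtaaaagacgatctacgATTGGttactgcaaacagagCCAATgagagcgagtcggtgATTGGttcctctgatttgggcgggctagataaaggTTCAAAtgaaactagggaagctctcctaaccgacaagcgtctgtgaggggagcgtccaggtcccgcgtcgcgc
Cdk1: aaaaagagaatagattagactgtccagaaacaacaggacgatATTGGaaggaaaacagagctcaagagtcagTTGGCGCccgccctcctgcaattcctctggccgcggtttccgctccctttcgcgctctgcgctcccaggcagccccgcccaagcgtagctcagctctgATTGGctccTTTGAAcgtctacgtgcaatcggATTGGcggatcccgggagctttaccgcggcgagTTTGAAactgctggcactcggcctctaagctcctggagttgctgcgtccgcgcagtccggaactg
Ccnb1: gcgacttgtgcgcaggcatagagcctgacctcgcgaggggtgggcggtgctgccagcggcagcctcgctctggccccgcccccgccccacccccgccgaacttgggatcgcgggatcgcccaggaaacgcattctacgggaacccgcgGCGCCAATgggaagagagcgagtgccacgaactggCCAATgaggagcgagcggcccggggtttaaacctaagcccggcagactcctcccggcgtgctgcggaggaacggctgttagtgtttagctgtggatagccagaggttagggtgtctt

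The windows lie on the minus strand at chrX:93632106-93632405 for Pola1, chr11:99024140-99024439 for Top2a, chr10:69352863-69353162 for Cdk1 and chr13:100786437-100786736 for Ccnb1. Pola1 had 4 E2F words, 3 upstream of the start and 1 at position 15 after it, with a single CCAAT 37 bases upstream. Top2a had 4 CHR words and 6 CCAAT boxes and no E2F word. Cdk1 held all 3 kinds, with CHR words 71 and 15 bases upstream of the start and the E2F word 178 bases upstream. Ccnb1 had no CHR word of these spellings, and its E2F word began 102 bases upstream and overlapped a CCAAT box.

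RPKM, reads scaled to transcript length and to the reads of the library, summed to between 358132.9 and 382549.7 per library. Such a sum does not measure library size. The number of reads, estimated from the RPKM values, was similar between libraries, at 30450000 to 35030000. At that depth the lowest member value in each library rested on 144 to 171 reads per kilobase, and 3 reads on a kilobase would give 0.086 to 0.099 RPKM. Whether each library stands for its own mouse is not in the labels, and the spread behind every p-value is that between libraries, which may be technical. Markers did not settle the labelled identity. Cbfb was 28.9 to 33.1 RPKM, Runx1 25.9 to 33.6 and Kit, a progenitor receptor, 15.8 to 19.7. Ptprc, the pan-leukocyte marker, was only 0.43 to 0.74 in PBS, and Cd34 stayed under 1 in all 12 libraries. The erythroid factor Gata1 was 85.6 to 107. In PBS, erythroid markers summed to a mean of 17497 RPKM, and the list of myeloid leukaemia and progenitor markers to 154. Stat3, the target of the hairpin, was not lower with doxycycline: it was 16.8 to 17.9 RPKM in PBS, 17.6 to 18.5 in CpG1668, 18.8 to 19.1 in the libraries labelled Dox and 19.0 to 19.7 in those labelled CpG1668+Dox.

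Every member was expressed in every library, and levels differed far more between genes than between groups. The lowest value of any member was 4.34 RPKM, for Cenpf, and the highest 120 RPKM, for Mki67. Averaged over the 12 libraries, Mki67, the antigen that marks cycling cells, led at 107 RPKM, followed by Pcna, the sliding clamp of the polymerases, at 101 RPKM, and Mcm6 at 76.6 RPKM. Cenpf, a kinetochore protein, at 4.88 RPKM and Gins2, a subunit of the active helicase, at 5.15 RPKM were the lowest. The highest of the 4 group means was 1.006 times the lowest for Rrm1 and 1.149 times the lowest for Ccnb1, the extremes among the 44.

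**Figure D1:**
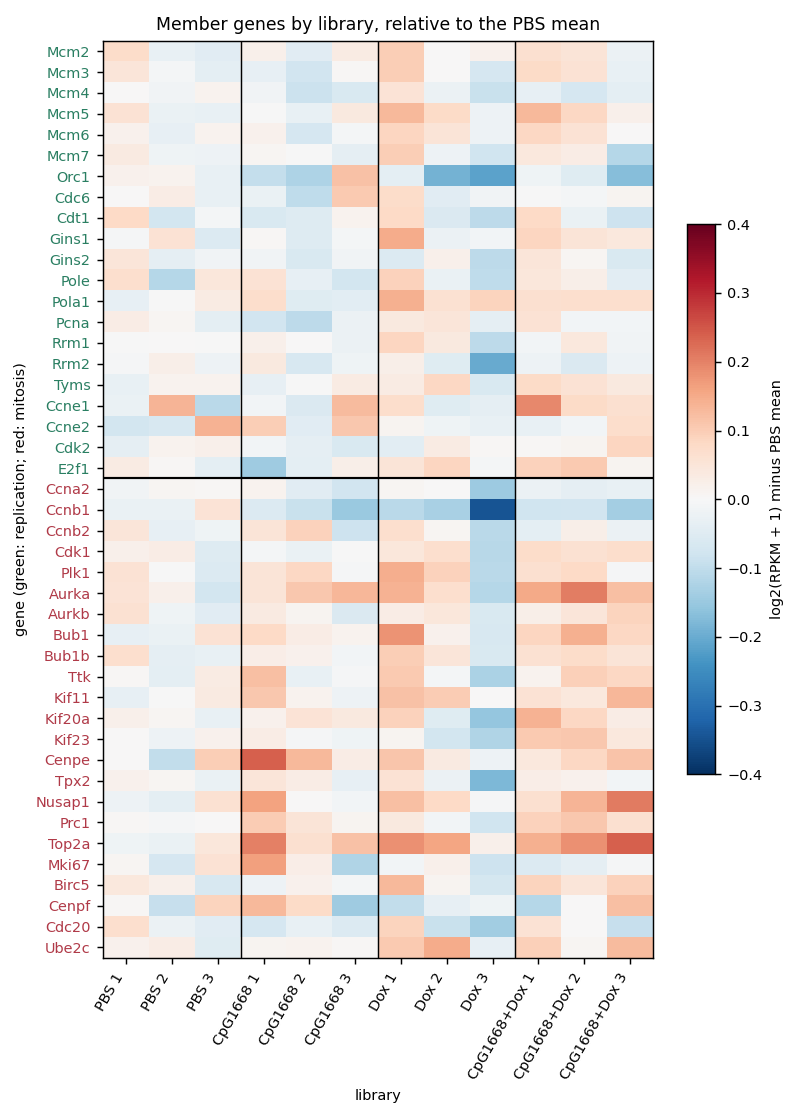
Each row is a member gene and each column a library; colour is log2(RPKM + 1) minus the mean of the 3 PBS libraries, with replication genes above the line and mitosis genes under it. The deepest blue cell is Ccnb1 in Dox 3, and Top2a is palest of its treated libraries in Dox 3.

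Differences were tested with limma on log2(RPKM + 1) over the 12167 genes whose mean reached 1 RPKM, at a threshold of 0.05 on the p adjusted over all of them. On this scale the 4 group means of a member spanned a median of 0.067 for replication genes and 0.0782 for mitosis genes, against 0.125 for all genes. The median standard deviation within groups was 0.057, 0.0694 and 0.0694 in the same order. For both member classes the median span of the 4 group means was thus slightly more than this standard deviation of single libraries. The widest member span, 0.19 for Ccnb1, was exceeded by 26.8% of all genes. A span of 1 or more, a doubling, was seen in 291 genes and in 0 members.

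With CpG1668 alone, 0 of 44 members passed the test against PBS, where 5.88% of all genes did, and 1 member, Top2a, had an unadjusted p under 0.05, where 20.5% of genes did. The 95% interval of the change, which is not adjusted for the number of genes, lay inside 1.25-fold either way for all 44 members and for 80.3% of all genes. Among genes with a mean of at least 5 RPKM, fitted alone, the share was 87.9%, and all but 1 member, Cenpf, reach that level. The libraries did not overlap for Top2a and Prc1, which were higher (11.3% of all genes were), and for Ccnb1, which was lower (14.3% of all genes were). Among replication genes 5 of 21 estimates were above 0, and among mitosis genes 17 of 23, against 43.5% of all genes. The median log2 changes were -0.015 for replication genes, 0.022 for mitosis genes and -0.014 for all genes. With median-of-ratios scaling 11 replication and 20 mitosis estimates were above 0, against 50.4% of all genes, and the replication median turned to 0.00084. In bulk RNA, fewer cells expressing a gene and less RNA per cell cannot be told apart.

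With Dox, 0 of 44 members passed against PBS, where 5.98% of all genes did, and 3 had an unadjusted p under 0.05, where 20.3% of genes did. All 44 intervals lay inside 1.25-fold, as did those of 80.2% of genes, or 88.3% at a mean of at least 5 RPKM. The lower bound of Ccnb1, -0.32, was next to the limit, and under most alternatives Ccnb1 or Orc1 lay outside it. Estimates were above 0 for 11 of 21 replication genes, 11 of 23 mitosis genes and 56% of all genes. The medians were 0.005 for replication genes, which turned to -0.0064 with median-of-ratios scaling, 0.00 for mitosis genes and 0.014 for all genes.

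With CpG1668+Dox, 1 member, Top2a, passed against PBS, in a comparison where 15.5% of all genes passed and 9.13% passed as higher. An unadjusted p under 0.05 was seen for 4 members, Top2a, Aurka, Nusap1 and Prc1, all of mitosis, and for 29.6% of genes. All 44 intervals lay inside 1.25-fold, against 75.2% of genes, or 83.9% at a mean of at least 5 RPKM. The libraries did not overlap, with CpG1668+Dox higher, for 12 members, 2 of replication and 10 of mitosis, where 18.8% of all genes did so. Tyms, Pola1, Cdk1, Aurka, Bub1, Top2a, Kif11, Kif20a, Kif23, Birc5, Nusap1 and Prc1 were these 12. Mcm4, Ccna2 and Ccnb1 did not overlap in the lower direction, where 16.6% of genes did so. Estimates were above 0 for 14 of 21 replication genes, 18 of 23 mitosis genes and 51% of all genes. The median log2 change was 0.011 for replication genes, 0.068 for mitosis genes and 0.003 for all genes. These 3 comparisons use the same PBS libraries and are not independent of each other.

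**Figure D2:**
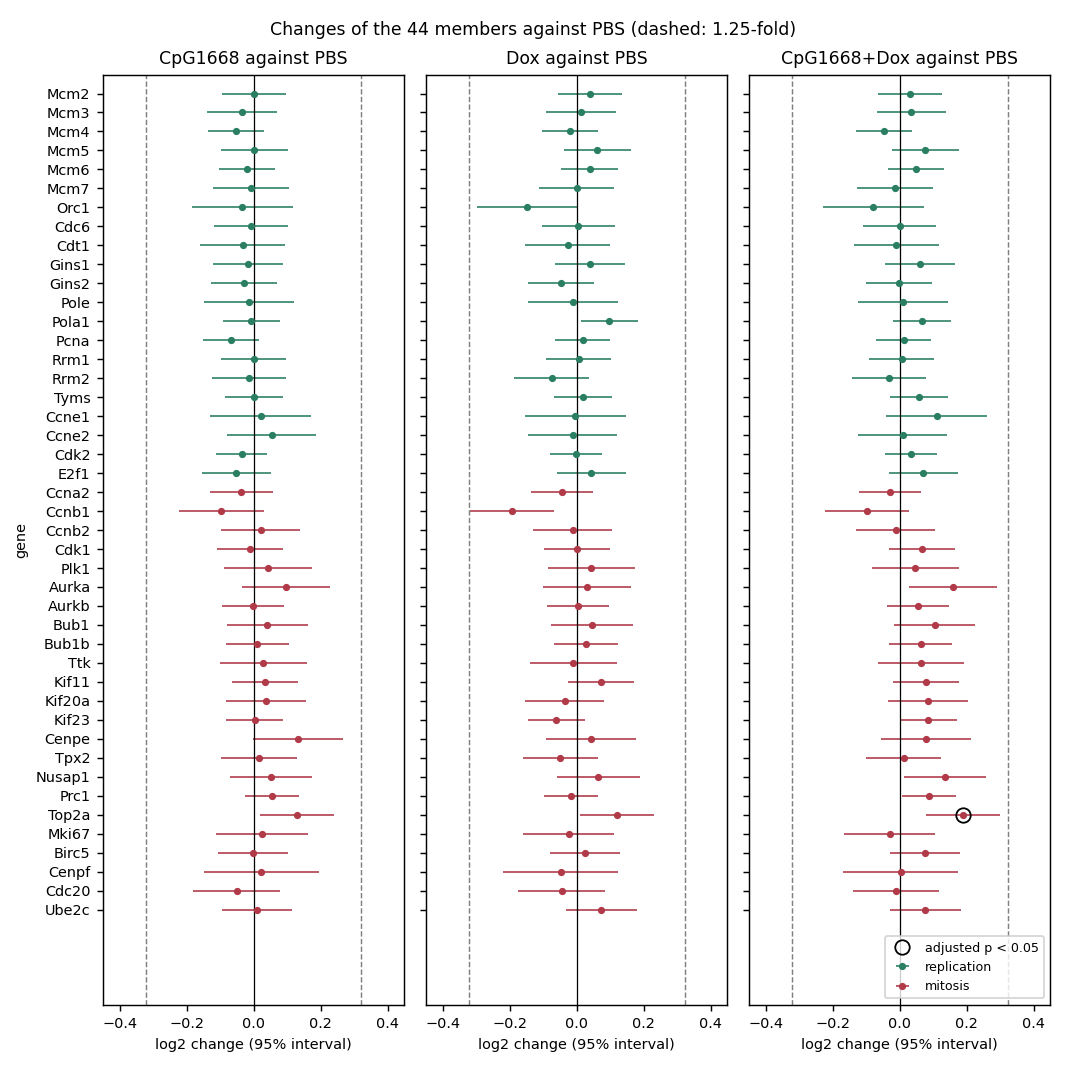
Points are log2 changes on the log2(RPKM + 1) scale against PBS and bars are their 95% intervals, for CpG1668, Dox and CpG1668+Dox; dashed lines are 1.25-fold either way and the ring marks an adjusted p under 0.05. All intervals lie between the dashed lines, and the ring is on Top2a at 0.19 with CpG1668+Dox.

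**Figure D3:**
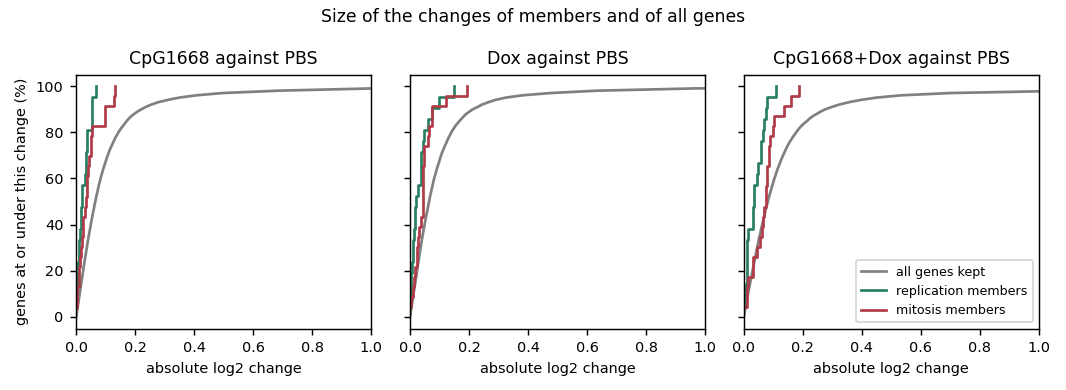
The vertical axis is the percentage of genes whose absolute log2 change is at or under the value on the horizontal axis, which ends at 1, for replication members, mitosis members and all 12167 genes. The member curves end at most at 0.19, and 22.3%, 11.7% and 18.3% of all genes changed by more than the most changed member with CpG1668, Dox and CpG1668+Dox.

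The helicase genes Mcm2 to Mcm7, which unwind DNA at the fork, had 95% intervals inside 1.25-fold in every pairwise comparison and held their order at the extremes. Mcm6 was highest and Mcm2 lowest of the 6 in all 12 libraries, at a ratio of 1.89 to 2.05. Mcm5 was 64.7, 61.0 and 60.9 RPKM in PBS, 62.1, 60.9 and 63.9 in CpG1668, 68.1, 65.6 and 61.2 in Dox, and 68.0, 65.8 and 63.0 in CpG1668+Dox, so all groups overlapped. Its log2 change with CpG1668+Dox, 0.08 (adjusted p = 0.29, limma), was the most positive of the 6. Mcm4 was 67.1 to 68.5 RPKM in PBS and 64.7 to 66.3 in CpG1668+Dox, a log2 difference of -0.05 that did not pass. Across the 3 comparisons with PBS the 6 helicase genes ranged from -0.05 to 0.08, and the lowest adjusted p was 0.29.

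Of the licensing genes, Orc1, the ATPase of the origin recognition complex, varied most. It was 7.62, 7.60 and 7.34 RPKM in PBS, 6.97, 6.83 and 8.23 in CpG1668, 7.29, 6.47 and 6.34 in Dox, and 7.42, 7.23 and 6.57 in CpG1668+Dox. The Dox libraries were all under those of PBS, as for 9.81% of all genes, with a mean 0.891 times that of PBS and a log2 change of -0.15 that did not pass (adjusted p = 0.25, limma). Cdc6, which loads the helicase with Orc1, had a highest group mean 1.008 times the lowest. Cdt1, its partner, was 26.0 to 29.7 RPKM over all libraries, with a PBS mean of 28.0 ± 1.6 (SD, n = 3) and a CpG1668+Dox mean of 27.8 ± 1.7 (SD, n = 3). Gins1 was 14.02 to 16.3 RPKM and Gins2 4.79 to 5.44 RPKM, and the groups of both overlapped PBS in every comparison with it.

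Pola1, the catalytic subunit of the polymerase that primes synthesis, was the replication gene nearest to a call. The gene lies on the X chromosome (GRCm38, 93304767 to 93632155, minus strand). It was 13.8, 14.2 and 14.5 RPKM in PBS, 14.9, 13.7 and 13.7 in CpG1668, 15.7, 14.8 and 15.1 in Dox, and 14.9 in each of the 3 CpG1668+Dox libraries. The Dox libraries and the CpG1668+Dox libraries were all above those of PBS, which holds for 15.2% and 18.8% of all genes. The log2 change was 0.10 with Dox (95% interval 0.01 to 0.18, adjusted p = 0.19, limma) and 0.07 with CpG1668+Dox (adjusted p = 0.29), so neither passed. Pole, the leading strand polymerase, was 9.55 to 11.2 RPKM with overlapping groups. Pcna was 99.4 to 104 RPKM in PBS, 94.9 to 100 in CpG1668, 99.5 to 106 in Dox and 101 to 106 in CpG1668+Dox, and its log2 change with CpG1668 was -0.07 (adjusted p = 0.35, limma).

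The intervals of the genes that supply deoxynucleotides were also inside 1.25-fold. Rrm1 and Rrm2 encode the subunits of ribonucleotide reductase, and Rrm2 was 2.12 to 2.31 times Rrm1 per length in all libraries. Rrm1 was 29.8 ± 0.04 RPKM in PBS and 29.9 ± 0.69 in CpG1668+Dox (SD, n = 3 each). Rrm2 was lowest in the library Dox 3, at 58.7 RPKM, and 64.6 to 69.5 RPKM in the other 11. Tyms, thymidylate synthase, was 14.4, 14.9 and 14.8 RPKM in PBS and 15.5, 15.3 and 15.1 in CpG1668+Dox, a log2 difference of 0.06 (adjusted p = 0.37, limma).

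The genes of S phase entry include E2f1, the activator of many of the genes above. It was 11.5, 11.3 and 10.9 RPKM in PBS, 10.1, 10.9 and 11.4 in CpG1668, 11.7, 11.99 and 11.2 in Dox, and 12.04, 12.2 and 11.3 in CpG1668+Dox. Its difference between CpG1668+Dox and CpG1668 was 0.12 on the log2 scale (95% interval 0.02 to 0.23, adjusted p = 0.22, limma) and its libraries overlapped. Ccne1 and Ccne2, the E cyclins, were 7.60 to 9.58 and 7.03 to 8.30 RPKM, and Cdk2, the kinase they bind, was 17.3 to 19.3 RPKM. In each of the 3 comparisons with PBS, 0 of these 4 genes passed.

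Among mitosis genes, Top2a, the topoisomerase that untangles sister chromosomes, was the only member called. It lies on chromosome 11 (GRCm38, 98992943 to 99024189, minus strand). Its level was 43.3, 43.0 and 45.3 RPKM in PBS, 50.6, 46.0 and 47.7 in CpG1668, 49.9, 49.1 and 44.5 in Dox, and 48.5, 49.9 and 52.0 in CpG1668+Dox. The CpG1668 and the CpG1668+Dox libraries were all above PBS, as for 11.3% and 18.8% of all genes. Dox 3 lay within the PBS range. With CpG1668+Dox, Top2a rose to 1.14 times its PBS mean, by 0.19 on the log2 scale (95% interval 0.08 to 0.30, adjusted p = 0.027, limma). The changes with CpG1668 (0.13, adjusted p = 0.17) and with Dox (0.12, adjusted p = 0.21) did not pass, and the difference of CpG1668+Dox from either did not pass. The call was near the threshold: over the alternatives run the log2 change was 0.16 to 0.21 and the adjusted p 0.014 to 0.099. Among the fits without a library or with another filter, it was lost without PBS 1 (0.076), without PBS 2 (0.088), without CpG1668+Dox 2 (0.064), without CpG1668+Dox 3 (0.099) and with no filter on low genes (0.053).

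Ccnb1, cyclin B1, which activates Cdk1 at the entry to mitosis, had the widest span of group means. The gene lies on chromosome 13 (GRCm38, 100778650 to 100786570, minus strand). It was 20.4, 20.4 and 21.7 RPKM in PBS, 20.04, 19.5 and 18.7 in CpG1668, 19.3, 19.0 and 16.2 in Dox, and 19.6, 19.7 and 18.9 in CpG1668+Dox. All 9 treated libraries were under all 3 PBS libraries, as for 4.47% of all genes. The Dox mean was 0.870 times that of PBS, a log2 change of -0.19 (95% interval -0.32 to -0.07) that did not pass (adjusted p = 0.076, limma), and CpG1668 and CpG1668+Dox both gave -0.10 (adjusted p = 0.39 and 0.29). The Dox difference passed without Dox 1 (-0.24, adjusted p = 0.044) and with median-of-ratios scaling (-0.21, adjusted p = 0.048). Its paralogue Ccnb2, also a B cyclin, showed no such order, at 50.2 to 53.3 RPKM in PBS and 47.6 to 53.9 in Dox, so Ccnb2 was 2.34 to 2.61 times Ccnb1 in PBS and 2.55 to 2.94 times Ccnb1 in the treated libraries. Near-identical copies of a gene could share reads in the authors' counting, which was not tested here.

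Cdk1, the kinase of mitosis, was 18.01 to 19.1 RPKM in PBS, 17.2 to 19.6 in Dox and 19.5 to 19.7 in CpG1668+Dox. Ccna2, cyclin A2, was 41.4 to 42.1 RPKM in PBS and 40.8 to 41.1 in CpG1668+Dox, a log2 difference of -0.03. PBS and CpG1668+Dox did not overlap for either gene, Cdk1 being higher, as were 18.8% of all genes, and Ccna2 lower, as were 16.6%. Neither difference passed. The kinase Aurka, which matures the spindle poles, was 23.8, 23.2 and 21.7 RPKM in PBS, 23.7, 24.7 and 25.2 in CpG1668, 25.3, 24.0 and 21.04 in Dox, and 25.5, 26.5 and 24.9 in CpG1668+Dox. Its log2 change with CpG1668+Dox was 0.16 (95% interval 0.03 to 0.29, adjusted p = 0.099, limma) and passed only without Dox 3 (adjusted p = 0.032). Plk1, a kinase of mitotic entry, was 34.7 to 41.5 RPKM and Aurkb, the kinase of the chromosomal passenger complex, 28.1 to 31.3 RPKM, both with groups that overlapped in the comparisons with PBS.

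The spindle checkpoint genes Bub1, Bub1b and Ttk, which delay anaphase until chromosomes are attached, had log2 changes of -0.01 to 0.10 in the 3 comparisons with PBS. Bub1 was 13.03, 13.1 and 13.9 RPKM in PBS and 14.2, 14.8 and 14.2 in CpG1668+Dox. These did not overlap, as for 18.8% of all genes in that direction, and the difference did not pass (adjusted p = 0.24, limma). Among the kinesin motors, Kif23, which bundles the central spindle for cytokinesis, differed most, and between the 2 Dox groups rather than against PBS. Kif23 (chromosome 9, GRCm38, 61915905 to 61946774, minus strand) was 10.53, 10.4 and 10.7 RPKM in PBS, 10.8, 10.49 and 10.4 in CpG1668, 10.6, 9.95 and 9.59 in Dox, and 11.4, 11.4 and 10.9 in CpG1668+Dox. The CpG1668+Dox mean was 1.12 times the Dox mean, 0.15 on the log2 scale (95% interval 0.06 to 0.23, adjusted p = 0.071, limma), and this passed without Dox 1 (0.18, adjusted p = 0.031) and with median-of-ratios scaling (0.16, adjusted p = 0.039). Kif20a, Kif11 and Cenpe, the other 3 motors, stayed within -0.04 and 0.13 against PBS on the log2 scale, and Cenpe had the widest upper bound of any member with CpG1668, 0.27.

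Prc1, the bundler that Kif23 works with, was 12.3, 12.2 and 12.2 RPKM in PBS, 13.2, 12.7 and 12.3 in CpG1668, 12.6, 12.1 and 11.5 in Dox, and 13.1, 13.2 and 12.8 in CpG1668+Dox. Its log2 difference was 0.09 against PBS (adjusted p = 0.14, limma) and 0.11 against Dox (adjusted p = 0.20), both for CpG1668+Dox. Nusap1, a microtubule binder of the spindle, was 17.5, 17.3 and 18.6 RPKM in PBS and 18.6, 19.6 and 20.7 in CpG1668+Dox, a log2 difference of 0.14 (adjusted p = 0.13). Tpx2, which activates Aurka on the spindle, did not follow, at 39.7 to 41.0 RPKM in PBS and 40.2 to 41.3 in CpG1668+Dox. Mki67 was 108, 102 and 111 RPKM in PBS, 120, 109 and 98.5 in CpG1668, 106, 109 and 101 in Dox, and 103, 105 and 107 in CpG1668+Dox, so the spread inside CpG1668 covered all other libraries. Cdc20 and Ube2c, the activator and the ubiquitin enzyme of the anaphase-promoting complex, were 51.5 to 60.5 and 34.4 to 39.5 RPKM, and Birc5, survivin of the passenger complex, was 21.5 to 24.8 RPKM.

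**Figure D4:**
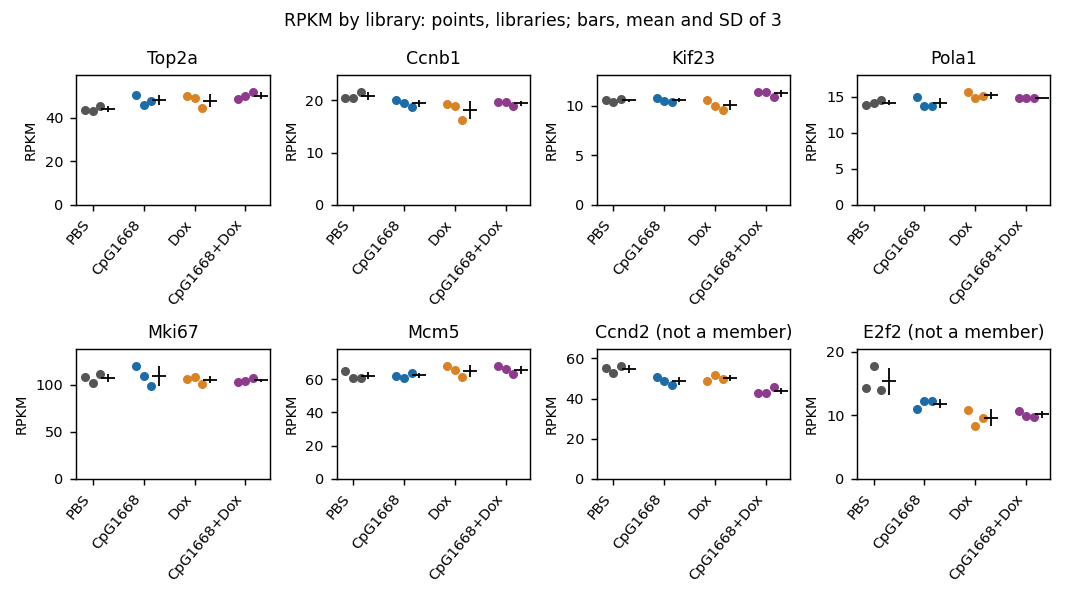
RPKM of 6 members and of the non-members Ccnd2 and E2f2, with 1 point per library, bars for the mean and SD of 3 libraries, and axes that start at 0. Top2a is 43.0 to 45.3 RPKM in PBS and 48.5 to 52.0 in CpG1668+Dox, while Mki67 and Mcm5 overlap in all groups and E2f2 drops from 13.95 or more in PBS to 10.9 or less in Dox.

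The comparisons among treated groups gave no member calls. Between CpG1668+Dox and CpG1668 the test called 0 members and 3.26% of genes, and 1 member had an unadjusted p under 0.05 (15.4% of genes). Here 9 members, Pcna, Gins1, Tyms, Cdk2, Cdk1, Bub1, Bub1b, Kif23 and Birc5, were higher in CpG1668+Dox without overlap, where 15.2% of genes were. Between CpG1668+Dox and Dox it called 0 members and 3.48% of genes, with 3 members at an unadjusted p under 0.05 (13.7% of genes), and Kif23 and Prc1 did not overlap (8.84% of genes). Between CpG1668 and Dox it called 0 members and 1.56% of genes, with 2 members at an unadjusted p under 0.05 (15.2% of genes), Pola1 at -0.10 and Pcna at -0.09 on the log2 scale. All 44 intervals were inside 1.25-fold in each of these 3, as were those of 82% to 82.3% of genes. At a mean of at least 5 RPKM the share of genes was 89.5% to 90.0%. Estimates were above 0 for 17 replication and 17 mitosis genes between CpG1668+Dox and CpG1668 (58.4% of all genes). Between CpG1668+Dox and Dox these were 14 of 21 and 21 of 23 (45.5%), and with median-of-ratios scaling 18 and 23 (51%). Between CpG1668 and Dox they were 5 and 13 (39%). Genes of a class moved together across libraries, so these counts are a description.

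Whether the effect of CpG1668 differed with and without Dox was tested as an interaction in limma, which called 0 of 12167 genes (0%) and 0 members. An unadjusted p under 0.05 was seen for 812 genes (6.67%) and for 2 members. Ccnb1 had an interaction of 0.19 on the log2 scale (95% interval 0.01 to 0.37, adjusted p = 0.73) and Kif23 one of 0.14 (0.02 to 0.26, adjusted p = 0.68). In both, the change with CpG1668+Dox lay above the sum of the separate changes on that scale. The interval lay inside 1.25-fold for 43 members, all but Ccnb1, and for 71.4% of genes, or 82.2% at a mean of at least 5 RPKM.

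Averaged over each class, all groups overlapped for replication genes, and all but PBS and CpG1668+Dox overlapped for mitosis genes. The mean of log2(RPKM + 1) over the 23 mitosis genes, relative to its 12-library mean, was -0.005, -0.038 and -0.017 in PBS, 0.045, 0.006 and -0.039 in CpG1668, 0.052, 0.001 and -0.11 in Dox, and 0.027, 0.041 and 0.039 in CpG1668+Dox. The CpG1668+Dox libraries were all above PBS, and the Dox libraries took both the highest and the lowest place of all 12. For the 21 replication genes the same value was 0.013, -0.007 and -0.010 in PBS, -0.010, -0.055 and 0.010 in CpG1668, 0.060, -0.001 and -0.058 in Dox, and 0.048, 0.022 and -0.011 in CpG1668+Dox, with all groups overlapping. In Dox 1, 20 of 23 mitosis genes and 18 of 21 replication genes were above their own 12-library mean, and in Dox 3 these were 0 and 3. Late neutrophil markers, summed, also differed among the Dox libraries, at 589 RPKM in Dox 1, 1320 in Dox 2 and 2339 in Dox 3. They were highest in CpG1668+Dox 3, at 4596 RPKM, where 17 of 23 mitosis and 8 of 21 replication genes were above their own mean. The part of these markers was not tested. The replication mean minus the mitosis mean ran from -0.10 to 0.012. Since the 2 classes were tested by no score, these class means are a description.

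After group means were subtracted, mitosis genes moved together from library to library. The median Pearson correlation over the 12 libraries was 0.59 for the 253 pairs of mitosis genes, 0.43 for the 210 pairs of replication genes and 0.37 for the 483 pairs between the classes, against 0.025 for all pairs of the 12167 genes. Class means spread most among the Dox libraries, with an SD of 0.084 for mitosis and 0.059 for replication genes (n = 3). In the other groups it was at most 0.042 and 0.033 (n = 3 each). The genes of a pair share libraries, so these correlations describe libraries, the Dox ones above all, rather than conditions.

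**Figure D5:**
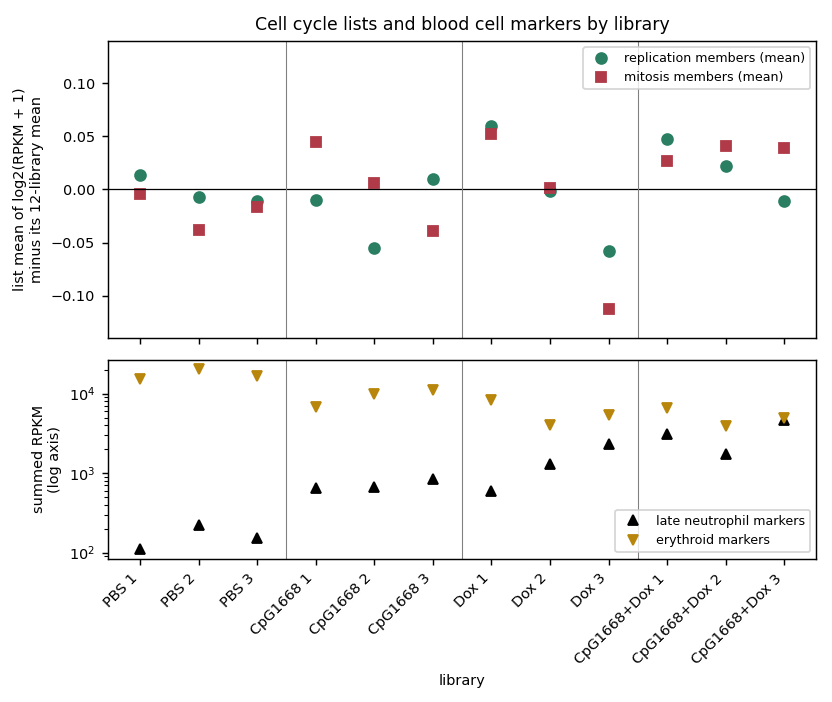
The upper panel gives, for each of the 12 libraries, the mean log2(RPKM + 1) of the 21 replication and the 23 mitosis members minus its 12-library mean; the lower panel gives the summed RPKM of late neutrophil and erythroid markers on a log axis. The members stay between -0.11 and 0.060, while neutrophil markers run from 109 to 4596 RPKM.

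Markers of blood cell types differed between the same groups, several of them by more than any member. The summed level of 15 late neutrophil markers (14 kept) was 109 to 222 RPKM in PBS, 656 to 854 in CpG1668, 589 to 2339 in Dox and 1751 to 4596 in CpG1668+Dox, and 10, 14 and 14 of them were higher than in PBS by the test. The erythroid markers summed to 15359 to 20306 RPKM in PBS, 6818 to 11154 in CpG1668, 3987 to 8261 in Dox and 3961 to 6608 in CpG1668+Dox, with 6, 9 and 15 of 17 lower. Monocyte markers summed to 34.7 to 63.6, 162 to 192, 125 to 205 and 332 to 491 RPKM in the same order. The list of myeloid leukaemia and progenitor markers, which holds Ptprc, Itgam and Fcgr3 beside Kit and Cd34, is not one of progenitors alone. It summed to 152 to 158, 239 to 249, 173 to 216 and 276 to 429 RPKM, with 6, 6 and 7 of 12 higher. Megakaryocyte markers summed to 160 to 203 RPKM over all libraries. Lymphoid markers summed to 12.3 to 17.6 RPKM in PBS, 18.1 to 20.3 in CpG1668, 16.7 to 20.4 in Dox and 19.7 to 33.2 in CpG1668+Dox. Of these 14 genes 12 were under 1 RPKM in every library, and 1 of the 2 kept was higher than PBS in each treated group by the test. The part of these cell types in the member values was not tested.

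Other genes of the cell cycle, from lists that do not hold the members, gave few calls as well. Among all genes 5.88% were called with CpG1668, 5.98% with Dox and 15.5% with CpG1668+Dox. Of 46 further replication genes 0 were higher and 1 lower with CpG1668, 0 changed with Dox, and 1 was higher and 1 lower with CpG1668+Dox. These were Chaf1b, a subunit of the chromatin assembly factor, which fell from 18.9 ± 0.61 RPKM in PBS to 16.7 ± 0.34 in CpG1668 (SD, n = 3, log2 change -0.17, adjusted p = 0.019, limma) and 17.3 ± 0.55 in CpG1668+Dox (adjusted p = 0.041), and Pold4, a small subunit of polymerase delta, which rose by 0.25 with CpG1668+Dox (adjusted p = 0.0036). Of 59 further mitosis genes 1 was higher and 1 lower with CpG1668, 1 higher with Dox, and 2 higher and 1 lower with CpG1668+Dox. Kif18b, a kinesin of the spindle, rose in all 3 comparisons, from 11.04 RPKM in PBS to 12.5, 12.9 and 12.7 (adjusted p = 0.045, 0.016 and 0.0092). Cdc25b, the phosphatase that activates Cdk1, fell from 60.1 ± 2.7 RPKM to 50.5 ± 4.3 with CpG1668 and 48.2 ± 0.98 with CpG1668+Dox (adjusted p = 0.025 and 0.0028), and Anln, a scaffold of the cleavage furrow, rose by 0.13 on the log2 scale with CpG1668+Dox (adjusted p = 0.035). Of 19 nucleotide supply genes the only call in these 3 comparisons was Samhd1, which degrades deoxynucleotides and rose by 0.17 with CpG1668+Dox (adjusted p = 0.014).

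Some regulators of the cycle had larger changes than any member. Ccnd2, cyclin D2, was 55.1, 52.7 and 56.3 RPKM in PBS, 50.9, 48.7 and 46.8 in CpG1668, 48.9, 51.8 and 49.8 in Dox, and 42.9, 42.8 and 45.5 in CpG1668+Dox. It fell by 0.32 on the log2 scale with CpG1668+Dox (adjusted p = 0.00037, limma) and by 0.16 with CpG1668 (adjusted p = 0.047), and its change of -0.12 with Dox did not pass. It was the only call among 10 G1 genes, the list of D cyclins, their kinases and Myc, in these comparisons. E2f2, an activating E2F, was 14.3, 17.8 and 13.95 RPKM in PBS, 11.04, 12.3 and 12.2 in CpG1668, 10.9, 8.29 and 9.65 in Dox, and 10.7, 9.96 and 9.75 in CpG1668+Dox. It fell by 0.62 with Dox (adjusted p = 0.0047) and by 0.55 with CpG1668+Dox (adjusted p = 0.003), while -0.34 with CpG1668 did not pass (adjusted p = 0.068). Foxm1, an activator of mitosis genes, rose from 10.3 RPKM to 11.9 with Dox (adjusted p = 0.046) and 12.4 with CpG1668+Dox (adjusted p = 0.0051), and Rbbp4, a subunit of the DREAM complex, rose by 0.10 with CpG1668+Dox (adjusted p = 0.035).

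In all, 19 regulators of the RB, E2F and DREAM group gave 0 calls with CpG1668, 1 higher and 1 lower with Dox, and 2 higher and 1 lower with CpG1668+Dox. Of 23 genes of the checkpoints and of the anaphase-promoting complex, 1, 1 and 3 were lower in the same comparisons and 0 were higher. All genes were called at 5.88%, 5.98% and 15.5% in these comparisons, so the counts of both lists with CpG1668+Dox, 3 of 19 and 3 of 23, were near that background. Fzr1, the activator that keeps the complex on in G1, fell in all 3, from 10.03 RPKM to 8.08, 7.88 and 8.19 (adjusted p = 0.018, 0.010 and 0.010). Cdc16 and Anapc4, core subunits, fell by 0.23 and 0.17 on the log2 scale with CpG1668+Dox (adjusted p = 0.013 and 0.034). Of 7 inhibitors of cyclin-dependent kinases 0 passed against PBS; Cdkn2d was higher in CpG1668+Dox than in CpG1668, by 0.41 on the log2 scale (adjusted p = 0.028).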

How the data were processed

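RNA from 12 libraries, 3 in each of 4 groups, was analysed from the deposited RPKM tables, made by the authors. Per the submitters' processing notes STAR 2.7.9, Partek 7.18.0723 and mm10 were used, with roles, annotation and filters not given in the sources used here. RPKM divides by the library's reads, so a few very abundant genes can lower the rest. Reads were estimated from the RPKM steps of 4852 to 5188 single-transcript genes per library, of which 72.2% to 73.5% came within 0.05 of whole reads, so no count test was run.

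Genes with a mean of at least 1 RPKM (12167) were fitted as log2(RPKM + 1), which understates changes of low genes, with limma 3.58.1 in R 4.3.3: 4 group means, intensity trend, 8 residual degrees of freedom, 7 contrasts and Benjamini-Hochberg adjustment over all genes. The procedure was also run on simulated data in which genes varied independently, unlike the members, and no member result rests on that run. The power to call changes as small as those of the members is not given here. Any member could be named; called members got full values, and otherwise the 2 of a class with the smallest p in a contrast. Other cell cycle genes were named if called (at most 4 of a list per contrast), besides fixed regulators. The members and lists were chosen with earlier results of these data known. Gene positions are from GENCODE M21 (GRCm38), which held all 44 members. Alternatives were a pseudocount of 0.1, no filter or one of 5 RPKM, and changes in the scaling, the trend, the groups fitted, the replicate block and each library in turn.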

Additional observations from a re-analysis of the deposited data

How the results depend on the processing

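Of the member counts, those in CpG1668 against PBS, CpG1668+Dox against CpG1668, CpG1668 against Dox and the interaction were 0 under all alternatives run. In Dox against PBS the count was 1 (Ccnb1) with median-of-ratios scaling and ranged from 0 to 1 when single libraries were left out. In CpG1668+Dox against PBS it was 0 with no filter and 0 with the replicate block, and ranged from 0 to 2 over left-out libraries; the 2, Top2a and Aurka, came without Dox 3. In CpG1668+Dox against Dox it was 1 (Kif23) with median-of-ratios scaling and ranged from 0 to 1 over left-out libraries. The cause was not tested.

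Over left-out libraries the median change of mitosis genes ranged from -0.025 to 0.049 in Dox against PBS and from -0.016 to 0.079 in the interaction, and that of replication genes from -0.018 to 0.040 in CpG1668+Dox against Dox and from -0.00084 to 0.064 in the interaction. The ends 0.049, -0.018 and -0.00084 came without Dox 3 and 0.079 without Dox 1. The other class medians moved by less than the spread between libraries. Over all alternatives 9 of the 14 class medians changed sign at least once, so no direction is drawn from them. Of the 27 named member changes 0 did. These were picked for a small p in the same libraries, so their signs were unlikely to turn and the 0 is no support for them.

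Counts over all genes were less stable: 1890 called in CpG1668+Dox against PBS became 1155 with a mean of at least 5 RPKM, which also drops Cenpf, and 2624 with no filter. The count fell from 716 to 367 in CpG1668 against PBS without CpG1668 3, from 728 to 313 in Dox against PBS without Dox 2, from 397 to 123 in CpG1668+Dox against CpG1668 without CpG1668+Dox 3, and from 190 to 31 in CpG1668 against Dox without CpG1668 1. In CpG1668+Dox against Dox 423 became 180 at the filter of 5 and 658 with no filter, and the interaction called up to 12 genes, with no filter. In the 6 pairwise comparisons 42 to 44 members had intervals inside 1.25-fold over the alternatives that tested all 44, and Ccnb1, Orc1, Aurka, Top2a, Cenpe and Ccne1 were the ones outside in any.

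Replicate numbers did not pair the libraries: of 18 pairs of libraries sharing a number, 2 had deviations correlated above 0.1 (range -0.21 to 0.27), and 1 of 12 libraries correlated best with its own number. The replicate block moved the member count only in CpG1668+Dox against PBS, from 1 to 0, so the call of Top2a was lost in that fit too. Over all genes it moved the calls from 190 to 78 in CpG1668 against Dox and from 1890 to 1584 in CpG1668+Dox against PBS.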

Other observations

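Regulators outside the 44 genes that did not pass any comparison with PBS had these levels. Myc, the growth factor response gene, was 80.5 to 85.4 RPKM in PBS, 78.7 to 89.1 in CpG1668, 66.9 to 78.1 in Dox and 69.1 to 79.6 in CpG1668+Dox, with a log2 change of -0.17 in the last (adjusted p = 0.12, limma). Cdkn1a, the inhibitor p21, was 39.9 to 41.1 RPKM in PBS, 42.5 to 52.7 in CpG1668, 48.1 to 54.2 in Dox and 40.0 to 50.1 in CpG1668+Dox, with a log2 change of 0.33 with Dox (adjusted p = 0.052, limma). All Dox libraries were above all PBS libraries for Cdkn1a, as for 15.2% of all genes, and below them for Myc, as for 9.81%.

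Cdk4 was 52.7 to 60.7 RPKM over all 12 libraries and Cdk6, which shares D cyclins with it, 28.0 to 33.7 RPKM. Mybl2, a B-Myb factor of mitosis gene promoters, was 15.1 to 17.1 RPKM. Ccnd1, cyclin D1, was 0.10 to 0.41 RPKM and under the filter, so Ccnd2 and Ccnd3 (14.5 to 18.8 RPKM) were the D cyclins these cells expressed.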
